A study of Mus musculus with 6 samples.

Results

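The interferon response genes described here are Irf1, Irf7, Irf9, Stat2, Ifit1, Ifit3, Isg15, Ifih1 and Cxcl10, which are 9 of the 20665 protein-coding genes that the RefSeq table places on mouse autosomes. They were chosen by name as interferon genes, with earlier results of this same age contrast known. Every window of 1000 bp that overlapped a gene or the 10000 bp on either side of it was taken. The study compared endothelial cells, the cells that line blood vessels, sorted by flow cytometry from lungs of wild-type mice. The group titled mAdu has 3 samples and the group titled aged has 3. The design names ages of 8 and 18 months, and mAdu was taken as the 8-month group and aged as the 18-month group. No allele or treatment is named for either group. Nothing states that samples of 1 group came from separate mice, so a p-value measures only how these samples vary, which may be technical variation.

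Interferons are secreted by cells that sense viral nucleic acid, and they act on almost every cell type, including the endothelium, through receptors that switch on STAT and IRF transcription factors. STAT2 and IRF9 belong to the complex that binds the interferon-stimulated response element (ISRE), and the gamma-activated sequence (GAS) is a further element of interferon-responsive promoters. CpG methylation at a promoter is generally associated with low transcription, whereas the promoters of transcribed genes and most CpG-dense promoters lack it. RNA was not analysed here, so the values below are methylation levels only.

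The measured quantity is the mean methylation level of a window, in percent of methylated cytosine at CpG sites, and differences are aged minus mAdu in percentage points. A value with ± is a group mean with the SD of its 3 samples. Of the 298 windows that the 9 loci could hold, 262 had a value in all 6 samples. No window was counted at 2 loci, and no window of the 9 loci held a value within 0.01 points of 0% or 100%. The genes without a full set of windows were chiefly Ifit3, with 15 of 26, and Ifit1, with 21 of 31. Both lie in a cluster of near copies on chromosome 19 that also holds Ifit2, Ifit3b, Ifit1bl1 and Ifit1bl2, and reads of such copies may have been placed at another copy, so values at Ifit1 and Ifit3 are uncertain. The read depth and the number of CpG sites behind each window are unknown.

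As a check on the sorted cells, 4 lists of 10 marker genes each were measured. The median level of the less methylated gene end was 17.5% for the endothelial list. It was 38.9% for the epithelial list, 60.3% in haematopoietic genes and 30.7% in mesenchymal genes, and median gene body levels were 45.3%, 71.2%, 71.2% and 72.2% in the same order. Blood cells use interferon genes as well. All 10 haematopoietic genes had a body value, from 66.4% to 76.1%. Single bodies ran from 4.30% to 78.0% in the endothelial, 1.89% to 80.6% in the epithelial and 55.3% to 77.3% in the mesenchymal list. The ranges of the 4 lists thus overlapped. The mean of the haematopoietic bodies lay at 70.7% to 72.5% in mAdu and 71.1% to 71.6% in aged samples. The mesenchymal list moved at its gene ends: 9 of 10 were higher in aged samples, with a median difference of 1.58 points, and the list mean lay at 32.5% to 32.8% in mAdu and 33.3% to 34.9% in aged samples. Its bodies lay at 70.0% to 70.6% and 69.9% to 71.2%. What part other cells have in the values below was not tested. Over all windows, any 2 of the 6 samples differed by 5.46 to 5.67 points on average. This describes 2 single samples over windows of all levels. Group means vary less than single samples, and the lowest start windows given below varied less as well.

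The promoters of the 9 genes differ widely in their sequence. RefSeq (GRCm38.p6) gave 11 promoter entries for them, each with 250 bases before and 50 bases after an annotated start, and all 9 genes had at least 1. The following stretches of 250 bases end 1 base before the gene's first start in the promoter table and run 5′ to 3′ on the gene's strand, with each CpG in capitals. They are shown because they span the range of CpG content among the 9 genes: CpG-dense (Irf1, Stat2), a single CpG (Ifit3), and intermediate (Irf9).
Irf1, chr11:53769764-53770013, plus strand: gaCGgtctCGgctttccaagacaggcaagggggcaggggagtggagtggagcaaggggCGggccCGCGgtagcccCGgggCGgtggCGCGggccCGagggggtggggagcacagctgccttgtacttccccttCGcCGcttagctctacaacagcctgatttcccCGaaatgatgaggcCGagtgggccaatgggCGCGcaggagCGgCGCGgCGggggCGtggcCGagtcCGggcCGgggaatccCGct
Stat2, chr10:128270248-128270497, plus strand: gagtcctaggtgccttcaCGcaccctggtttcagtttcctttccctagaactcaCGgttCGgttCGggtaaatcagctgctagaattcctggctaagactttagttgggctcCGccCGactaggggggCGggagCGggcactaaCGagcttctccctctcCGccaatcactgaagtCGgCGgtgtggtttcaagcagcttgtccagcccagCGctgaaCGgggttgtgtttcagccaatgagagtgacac
Ifit3, chr19:34583279-34583528, plus strand: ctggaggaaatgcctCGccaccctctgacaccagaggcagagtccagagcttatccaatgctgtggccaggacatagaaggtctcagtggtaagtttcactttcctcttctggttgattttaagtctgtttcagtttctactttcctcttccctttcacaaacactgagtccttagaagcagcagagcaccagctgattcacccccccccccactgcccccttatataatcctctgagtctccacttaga
Irf9, chr14:55603735-55603984, plus strand: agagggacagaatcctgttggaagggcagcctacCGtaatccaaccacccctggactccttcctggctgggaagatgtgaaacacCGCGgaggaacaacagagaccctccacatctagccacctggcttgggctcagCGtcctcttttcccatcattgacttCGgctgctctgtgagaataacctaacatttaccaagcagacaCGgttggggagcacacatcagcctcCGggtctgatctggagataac

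The Ifit3 start in that table lies 410 bases inside the RefSeq gene span, so its stretch lies within the span, and the Irf7 start lies 75 bases inside its span. These stretches hold 25 CpG sites at Irf1, 14 at Stat2, 1 at Ifit3 and 7 at Irf9. Over the full 300 bases the first start had 32 CpG sites at Irf1, 22 at Stat2, 14 at Ifih1, 10 at Cxcl10, 9 at Irf9, 7 at Irf7, 6 at Isg15, 4 at Ifit1 and 1 at Ifit3. The transcription factor genes Irf1 and Stat2 and the sensor gene Ifih1 were thus the CpG-rich members, and the Ifit effector genes the CpG-poor ones. Irf1 and Irf9 have a second entry, with 43 CpG sites at Irf1 and 1 at Irf9.

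The ISRE core was searched as GAAA, any 2 bases and GAAA again, and the GAS element as TTCNNNGAA, on both strands. Among all 32851 promoters of the table, 1131 (3.44%) held the ISRE core and 2726 (8.30%) held GAS. The ISRE core was present at the first start of 6 of the 9 genes: Stat2, Ifit1, Ifit3, Isg15, Ifih1 and Cxcl10. GAS was found in Irf1 alone, as TTCCCCGAA beginning 90 bases before the start, and neither pattern of letters occurred in the windows searched at Irf7 and Irf9. The next stretches run from 170 to 51 bases before the start and carry the genes with more than 1 match. Capitals here mark the ISRE core on either strand.
Ifit1, chr19:34640719-34640838, plus strand: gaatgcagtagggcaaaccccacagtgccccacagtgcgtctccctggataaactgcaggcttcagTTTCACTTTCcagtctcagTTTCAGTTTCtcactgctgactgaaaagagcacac
Ifit3, chr19:34583359-34583478, plus strand: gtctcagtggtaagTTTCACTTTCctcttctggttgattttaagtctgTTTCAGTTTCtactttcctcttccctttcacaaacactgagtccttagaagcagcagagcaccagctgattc
Isg15, chr4:156200869-156200988, minus strand: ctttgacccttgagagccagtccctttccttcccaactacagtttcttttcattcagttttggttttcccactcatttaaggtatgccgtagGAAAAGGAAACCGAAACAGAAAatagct

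Ifit1 and Ifit3 carried the same pair of matches, TTTCACTTTC and TTTCAGTTTC, which begin 104 and 85 bases before the start at Ifit1 and 156 and 122 bases before it at Ifit3. Neither match contains a CpG. At Isg15, 3 matches overlap in a single run beginning 78, 72 and 66 bases before the start, and the middle match, GAAACCGAAA, contains a CpG. A match is a string of letters and was not measured as a bound site.

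Of the 9 starts, 6 had a mean under 20%, and 3 lay between 30.0% and 54.7% in every sample. Ifit1 stood between the others, from 8.95% to 21.5% over samples, and so crossed the 20% line. The window that holds the first annotated start averaged 0.390% over 6 samples at Irf1, 1.36% at Stat2, 1.41% at Ifih1, 2.46% at Irf7, 3.89% at Ifit3 and 16.5% at Ifit1. It averaged 34.0% at Cxcl10, 43.2% at Isg15 and 51.5% at Irf9. Neighbours in this order from Irf1 to Ifit3 overlapped in their ranges over samples, while each gene from Ifit3 upward lay clear of the next. At all 7 genes with a measured gene body the start window was lower than the body in 6 of 6 samples, also with the start window taken out of the bodies that include it (Irf1, Stat2 and Ifit3). With the bodies as defined, the gap was 18.7 points at Irf9 and up to 73.1 points at Ifih1. At Isg15 and Cxcl10, which are too short for a body value, the start window was lower than the next window into the gene in 6 of 6 samples, by 45.6 and 50.2 points.

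**Figure D1:**
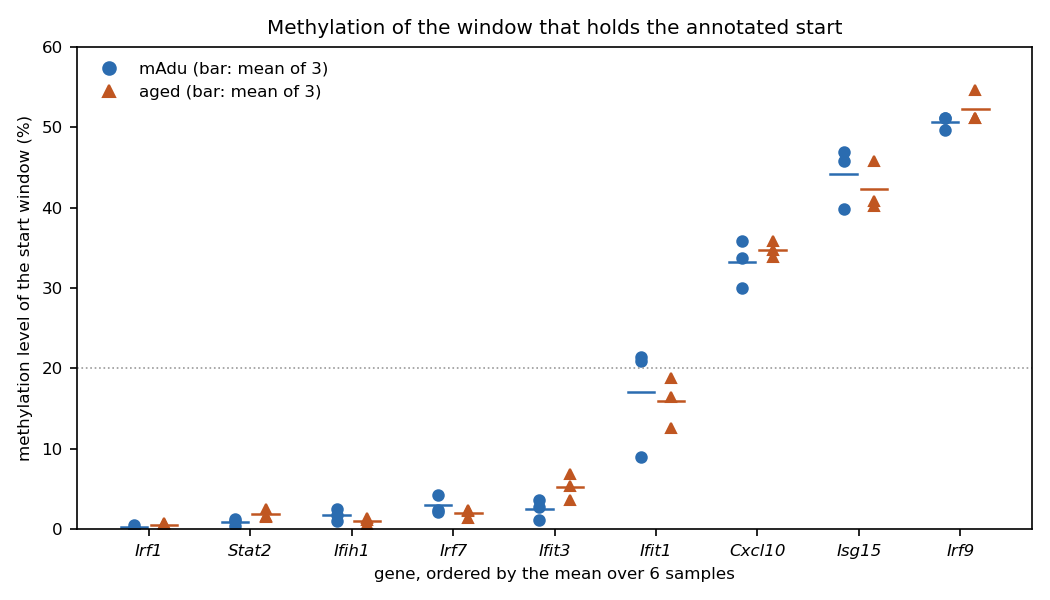
Methylation level in percent of the window that holds the annotated start, for each of the 9 genes in order of its mean, with 3 mAdu samples (circles) and 3 aged samples (triangles), and bars at the group means. The dotted line marks 20%: Irf1, Stat2, Ifih1, Irf7 and Ifit3 lie under 7% in every sample, whereas Irf9, Isg15 and Cxcl10 lie above 30% in every sample.

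The position of a start within its window matters for 2 of the higher genes. The Irf9 start lies 15 bases from the end of its window, and the next window into the gene was at 20.4%. The Cxcl10 start has 111 bases of its window before it, and the window before that was at 23.6%. Isg15 has no such neighbour: the window before it was at 53.9% and the one after it at 88.8%, so 43.2% was the lowest of the 3. Taking the lowest of the start window and its neighbours, a measure added after the values were seen, Isg15 became the highest of the 9 genes.

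The start levels were set beside those of 15101 protein-coding genes with a promoter entry and a start window, whose median was 4.85%, with 65.8% of genes under 20%. In the class with 0 to 2 CpG sites in the 300-base promoter, 1796 genes had a median start level of 70.3% (quartiles 58.8% to 79.3%). Ifit3, with 1 CpG, was at 3.89%, and 1.06% of its class lay lower. In the class with 3 to 5 CpG sites the median was 65.8%, and Ifit1 was at 16.5% with 12.5% of the class lower. Irf7, with 7 CpG sites, was at 2.46% against a median of 41.7% for 6 to 8 CpG sites, and 11.3% of the class lay lower. These 3 genes were low for their CpG count. The CpG-dense Irf1, with 32 CpG sites, was at 0.390%, also below the lower quartile of its class at 0.783%. There the gap was small and near 0, in a class with 97.8% of genes under 20%.

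Irf9 and Cxcl10 lay on the other side of their class. With 9 to 12 CpG sites, 1258 genes had a median of 8.20% (quartiles 2.05% to 30.1%), and 83.5% of them lay below Irf9 and 77.7% below Cxcl10. The Irf9 value comes from a window with 984 bases before the start, which also overlaps Rnf31. Isg15 was in the middle of its class, with 51.4% of genes lower. The CpG-dense starts of Irf1, Stat2 and Ifih1 had 3.29%, 52.7% and 32.3% of their classes below them.

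**Figure D2:**
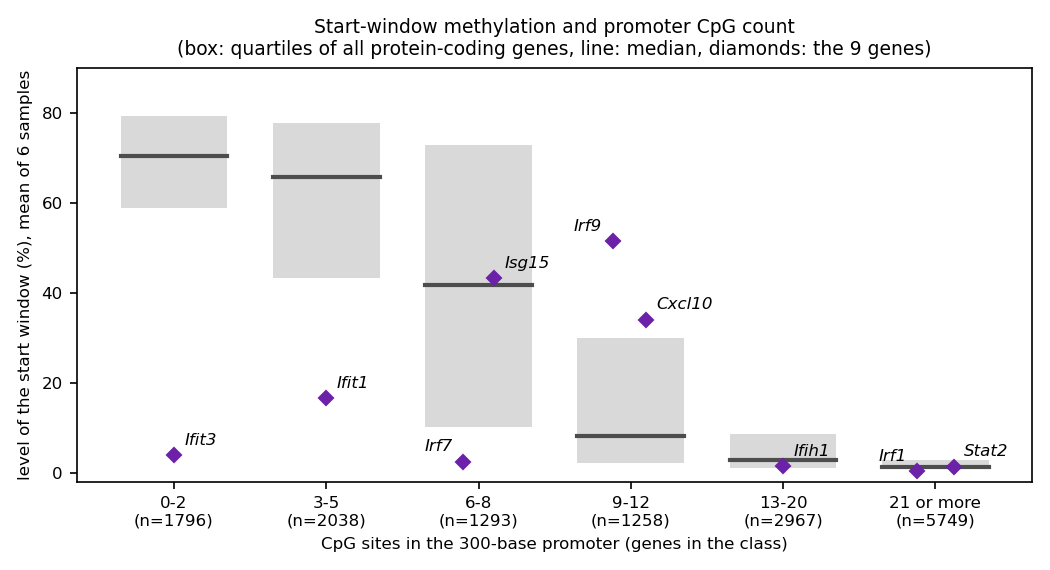
Start-window methylation in percent (mean of 6 samples) against the number of CpG sites in the 300-base promoter, with boxes for the quartiles and lines for the medians of all protein-coding genes in each class, and diamonds for the 9 genes. Ifit3, Ifit1, Irf7 and Irf1 lie below the quartiles of their classes, and Irf9 and Cxcl10 lie above the upper quartile of theirs at 30.1%.

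Since Ifit1 and Ifit3 both combine few CpG sites with ISRE matches, other genes of that kind were examined. Among genes with 0 to 5 promoter CpG sites, leaving out the 9, the 188 with an ISRE core had a median start level of 64.2%, and 19.1% of them were under 20%. The 3644 without it had a median of 68.8%, and 8.59% were under 20%. Among genes with 6 to 12 CpG sites, the medians were 6.56% in 95 genes with the ISRE core and 19.6% in 2452 genes without. With 13 or more CpG sites they were 1.24% in 183 genes and 1.56% in 8530 genes. These are descriptions without a test, and genes that share a promoter or a family are not independent.

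Ifih1 encodes MDA5, a cytosolic sensor of long double-stranded RNA. The gene (identifier 71586) spans chr2:62595618-62646255 and 68 windows of its locus had a value. The start window measured 1.05%, 1.81% and 2.47% in mAdu and 0.638%, 1.35% and 1.14% in aged samples, so the groups overlapped. The next window into the gene was at 17.9%, the one after it had means of 30.4% in mAdu and 28.9% in aged samples, and a window centred 2755 bp inside the start was at 6.69%. A further window inside the gene, 15755 bp from the start, was at 19.9%. The body stood at 74.6% ± 0.625 in mAdu and 74.3% ± 0.456 in aged samples. The groups overlapped and the means differed by -0.27 points.

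Irf1 encodes a transcription factor induced strongly by interferon gamma. The gene (identifier 16362) spans chr11:53770014-53778374. Its start window measured 0.146%, 0.0729% and 0.503% in mAdu and 0.316%, 0.706% and 0.596% in aged samples. A run of 5 windows under 20% covered the start and the first part of the gene, the longest such run at the 9 loci. A second run of 3 windows, which overlaps the microRNA gene Mir7671, had its nearest window centred 5514 bp before the start, and its lowest window was at 0.474%. The Irf1 locus held 9 of the 23 windows under 20% at all 9 loci.

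Irf7 encodes the factor that amplifies type I interferon production, and its gene (identifier 54123) spans chr7:141263183-141266499 on the minus strand. The start window measured 2.19%, 2.39% and 4.29% in mAdu and 2.20%, 1.32% and 2.35% in aged samples, and the groups overlapped. The low stretch was 2 windows long, bounded by 82.2% before the start, and the 10 kb after the gene was at 88.1%. Its body measured 63.0%, 56.3% and 59.4% in mAdu and 58.0%, 61.2% and 56.2% in aged samples, a wide spread within both groups.

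Stat2 and Irf9 encode 2 parts of the complex that binds the ISRE, and the windows that hold their first starts were unlike. Stat2 (identifier 20847, chr10:128270498-128292853) had a start window at 1.05%, 0.328% and 1.27% in mAdu and 1.58%, 1.50% and 2.46% in aged samples. Every aged sample was higher than every mAdu sample, with means of 0.882% ± 0.492 and 1.85% ± 0.529. Start windows without overlap were those of Stat2 and Ifit3, 2 of 9, both higher in aged samples. Over all windows, whose median level was 77.9%, 10% did not overlap, 4.76% higher and 5.28% lower in aged samples. The share over the start windows of all genes was not computed. The Stat2 start window also overlaps the neighbouring gene Apof. It was the only window under 20% at the locus, with 86.9% in the window before it. Irf9 (identifier 16391, chr14:55603985-55610030) had no window under 20%. Its start window measured 49.7%, 51.1% and 51.2% in mAdu and 51.1%, 51.2% and 54.7% in aged samples, with overlap. Of that window 984 bases lie before the start, and it also overlaps the neighbouring gene Rnf31. The next window, which holds the start of the second Irf9 entry, was at 20.4%.

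Among the effector genes, Ifit1 and Ifit3 encode RNA-binding proteins that restrict viral translation. Ifit3 (identifier 15959, chr19:34583119-34588982) had a start window at 2.75%, 1.13% and 3.59% in mAdu and 5.41%, 3.60% and 6.86% in aged samples. The means were 2.49% ± 1.25 and 5.29% ± 1.63, and the groups did not overlap, although the highest mAdu and lowest aged samples differed by less than 0.01 points. Ifit1 (identifier 15957, chr19:34640889-34650009) had a start window at 20.9%, 21.5% and 8.95% in mAdu and 16.5%, 18.8% and 12.5% in aged samples. Here the groups overlapped, and mAdu replicate 3 was the lowest of the 6. The low stretch was a single measured window at each gene. The next window into the gene had no value at Ifit3, and the window before the start window had none at Ifit1. The full length of these stretches is therefore unknown.

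Isg15 encodes a ubiquitin-like protein that is conjugated to other proteins after interferon, and its gene (identifier 100038882) spans chr4:156199424-156200818 on the minus strand. The start window measured 47.0%, 45.8% and 39.9% in mAdu and 40.2%, 40.8% and 45.8% in aged samples, and the groups overlapped. The locus nevertheless held 5 windows under 20%, none of them at the Isg15 start. They formed 1 run of 3 windows over Agrn and Gm46878, down to 1.11%, and 1 run of 2 windows over AW011738 and Perm1, down to 1.30%.

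Cxcl10 encodes a chemokine that draws T cells to inflamed vessels, and its gene (identifier 15945) spans chr5:92346638-92348889 on the minus strand. The start window measured 35.8%, 33.8% and 30.0% in mAdu and 33.8%, 35.8% and 34.7% in aged samples. The groups overlapped, and no window of the locus was under 20%.

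**Figure D3:**
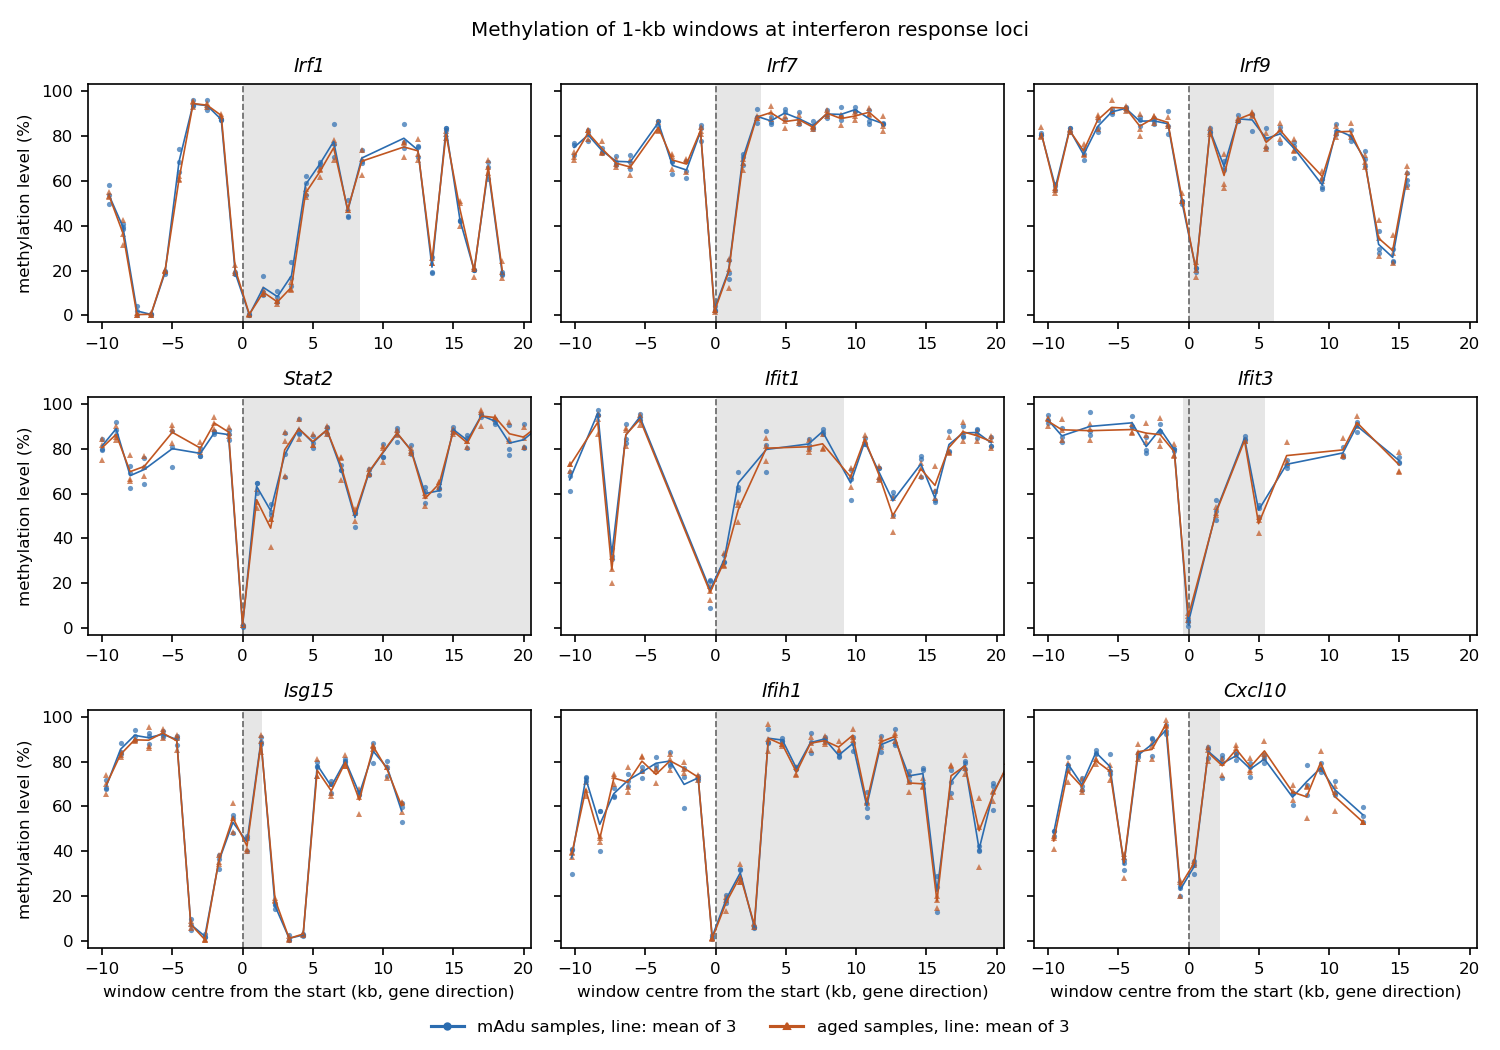
Methylation level in percent of each 1-kb window against the distance of its centre from the annotated start, in kb along the gene's direction and cut off 20 kb after the start, with the gene shaded, 3 mAdu samples as circles, 3 aged samples as triangles and lines through the group means. Single measured windows dip at the starts of Stat2 and Ifit3, and the next window into Ifit3 has no value. Irf1 has low runs at and before its start, and Isg15 has low windows on both sides but not at its start.

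The comparison of the ages concerned gene ends, gene bodies and single windows. The members were chosen with this contrast in view. The fit was made over all genes and windows, and what it gave at the members is a description from which nothing is read. Over all genes, limma with Benjamini-Hochberg adjustment called 1 of 19089 gene ends (0.00524%) and 3 of 17534 gene bodies (0.0171%), and none of the 9 genes was among them at either place. Without adjustment, 948 ends (4.97%) and 872 bodies (4.97%) had a limma p under 0.05. Among the members these were 0 of 9 ends and 2 of 7 bodies, those of Irf1 and Ifit1. Of the 7 members with a body value, 6 were lower in aged samples, against 52.3% of all bodies. Of the 9 ends, 3 were lower and 6 higher, against 49% lower over all ends. Median differences were -1.11 points for the members' bodies and 0.639 points for their ends, beside -0.0392 and 0.0323 over all genes.

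The groups did not overlap at 2 of the 7 bodies, Irf1 and Ifit3, both lower in aged samples. Over all genes, 5.41% of bodies were lower and 4.63% higher in aged samples without overlap, 10% together. The Irf1 body measured 35.5%, 36.9% and 35.9% in mAdu and 34.1%, 33.7% and 33.4% in aged samples. Its mean went from 36.1% ± 0.742 to 33.7% ± 0.355, a difference of -2.34 points, and the difference kept its sign without each sample in turn, between -2.64 and -1.93 points. The Ifit3 body measured 47.6%, 49.0% and 47.7% in mAdu and 45.8%, 47.4% and 47.5% in aged samples, from 48.1% ± 0.798 to 46.9% ± 0.918. That difference of -1.21 points rests on 4 windows and ranged from -1.50 to -0.68 points without each sample in turn, falling over 1.5 times without mAdu replicate 2 (-0.75) or aged replicate 1 (-0.68). It was -3.32 points with the median over windows. One of the 4 is the start window, which was higher in aged samples, and without it the body was 63.3% ± 1.45 and 60.8% ± 1.35, a gap of -2.55 points, still without overlap. The Irf1 body without its start window differed by -2.72 points.

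The Ifit1 body had the largest difference of the 7, -3.78 points, and its groups overlapped. It measured 71.7%, 66.3% and 69.0% in mAdu and 65.3%, 63.6% and 66.7% in aged samples. With the median over its 5 windows in place of the mean, the difference was 0.744 points, the opposite sign, and without mAdu replicate 1 it was -2.42 points. Irf7, at -1.11 points, Irf9, at -0.62 points, Ifih1 and Stat2, at 0.10 points, had overlapping groups, and each changed sign without at least 1 sample.

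At the ends, Irf1 alone did not overlap, and there the aged samples were higher: 9.34%, 9.80% and 9.45% in mAdu and 10.1%, 11.7% and 9.81% in aged samples, with the nearest pair almost level. Over all genes, 10.2% of ends did not overlap, 5.19% higher and 4.99% lower in aged samples. Irf1 thus had an end that was higher by 0.991 points and a body that was lower by 2.34 points. The ends at Cxcl10 and Stat2 were also higher, by 1.64 and 1.07 points, with overlap. These differences leaned on single samples. At Cxcl10 the value was 2.73 without mAdu replicate 1, 0.192 without mAdu replicate 3, 2.47 without aged replicate 2 and 1.03 without aged replicate 3. At Stat2 it was 0.462 without mAdu replicate 1, 1.72 without mAdu replicate 3, 0.572 without aged replicate 1 and 1.62 without aged replicate 2. At Irf1 it was 0.415 without aged replicate 2. The mesenchymal marker ends were also higher in aged samples, as given above, and their part in these values was not tested.

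**Figure D4:**
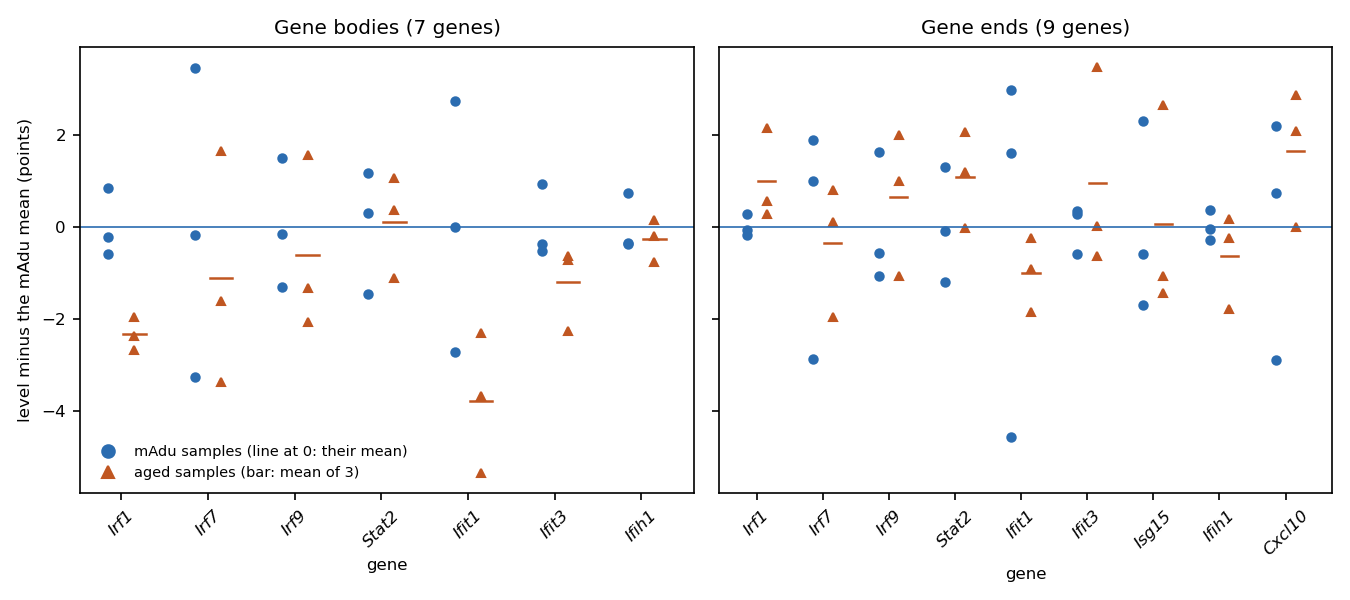
Level of each sample minus the mAdu mean, in percentage points, for 7 gene bodies (left) and 9 gene ends (right), with mAdu samples as circles, aged samples as triangles and bars at the aged means. The Irf1 and Ifit3 bodies and the Irf1 end are the places where the circles and triangles do not overlap.

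The single windows of the 9 loci were split evenly, with 134 of 262 lower and 128 higher in aged samples. Over all windows, 51.1% were lower. The median difference was -0.0732 points, beside -0.0768 over all windows. In 30 windows (11.5%) the samples of 1 age lay all above or all below those of the other, against 10% of all windows. Of these, 17 were lower and 13 higher, beside 5.28% and 4.76% of all windows. By limma with Benjamini-Hochberg adjustment 0 of the 262 windows were called, against 355 of 1683697 (0.0211%) over all windows, while 8 had an unadjusted p under 0.05, as did 4.67% of all windows. Windows inside the 9 genes were lower in 65 of 111 cases, those before the genes in 36 of 79 and those after in 33 of 72. The shares over windows inside, before or after all genes were not computed, so these counts are a description only.

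The widest differences without overlap lay outside the start windows. At Ifit1, the window centred 1611 bp into the gene measured 69.6%, 62.9% and 61.7% in mAdu and 47.5%, 56.3% and 54.7% in aged samples. Its mean went from 64.8% ± 4.27 to 52.8% ± 4.69, and it was the only window of the 262 whose means differed by 10 points or more. The share of all windows with such a difference was not computed. The Ifit1 window also overlaps Ifit1bl1. At Stat2, the window centred 2002 bp into the gene measured 50.3%, 51.7% and 55.3% in mAdu and 48.6%, 48.8% and 36.4% in aged samples. Aged replicate 3 was well below the rest there, and the means were 52.4% ± 2.58 and 44.6% ± 7.10.

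At Irf1, the window centred 4514 bp before the start, at the edge of the low run over Mir7671, measured 64.2%, 68.2% and 74.0% in mAdu and 60.2%, 62.0% and 60.8% in aged samples. Ifit3 had its widest such difference in the window at the end of the gene, 52.6% ± 2.85 in mAdu and 46.6% ± 3.81 in aged samples. Cxcl10 had it in a window 6611 bp before the start, within Art3, at 84.0% ± 1.03 and 80.4% ± 1.34. At Irf7 it was a window within the neighbouring gene Phrf1, at 91.8% ± 1.10 and 89.0% ± 1.75. All of these were lower in aged samples.

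In Ifih1 and Isg15 the widest such difference was in the other direction. At Ifih1, a window 28755 bp into the gene measured 76.9%, 73.6% and 63.6% in mAdu and 83.5%, 79.5% and 78.1% in aged samples. At Isg15, a window over Gm46878 went from 15.5% ± 1.18 to 18.4% ± 0.855. Irf9 had no window without overlap. Of the 262 windows, 25 differed by 5 points or more between the group means. The share of all windows that differed by as much was not computed, so this count cannot be called high or low.

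**Figure D5:**
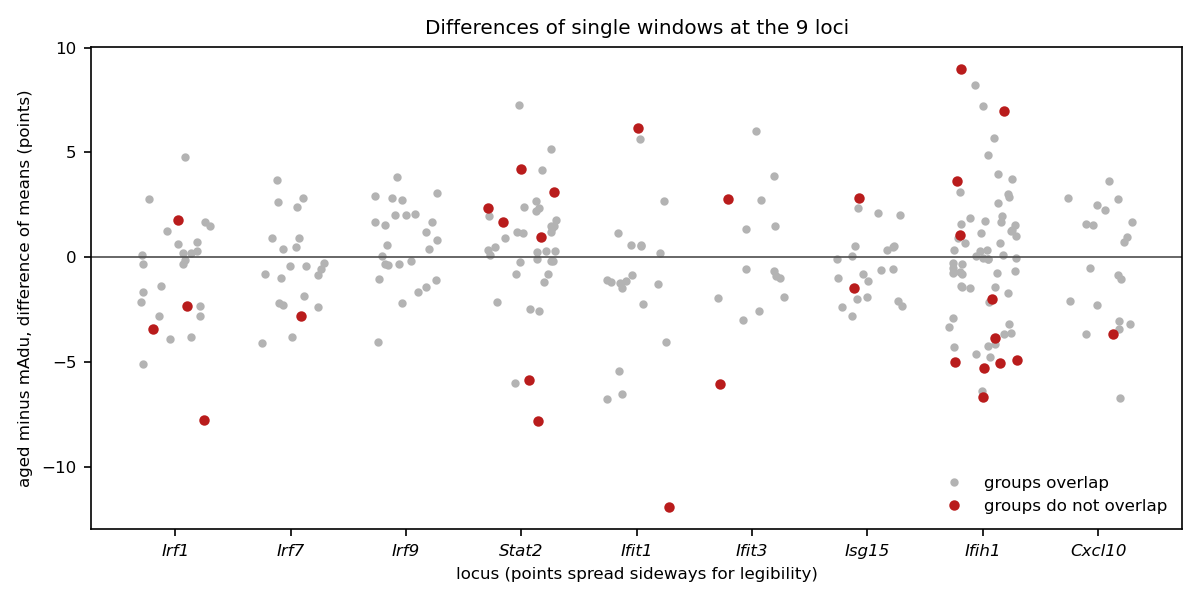
Difference between the group means (aged minus mAdu, percentage points) of each of the 262 windows by locus, spread sideways for legibility, with windows whose groups do not overlap in red. The red points lie on both sides of 0, 17 below and 13 above, and the lowest is the Ifit1 window at -11.9 points.

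Other genes of the pathway were taken from a list of 66 that holds receptors, kinases, sensors and further effectors. Limma called none of the 60 measured ends and none of the 59 measured bodies, and 5 ends and 5 bodies had an unadjusted p under 0.05, as did 4.97% of all ends and 4.97% of all bodies. Of the ends 37 were lower in aged samples (61.7%, against 49% of all ends), with a median difference of -0.587 points. Of the bodies 39 were lower (66.1%, against 52.3% of all bodies), with a median of -0.328 points. The genes are not all separate. The Psmb9 and Tap1 ends are the same windows, so the same lower value is counted under both names. The Ifit1bl1 body holds the whole of the member Ifit1. The ends with the smallest p were those of Cmpk2, a nucleotide kinase gene next to the antiviral gene Rsad2, and of Irf2, a factor that opposes Irf1. The Cmpk2 end was 35.6% ± 0.905 in mAdu and 30.4% ± 0.812 in aged samples (limma adjusted p = 0.883). The Irf2 end was 7.61% ± 0.471 and 4.79% ± 0.779 (limma adjusted p = 0.883).

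Next came the ends of Eif2ak2, which encodes the kinase PKR, at 48.1% ± 0.461 and 44.4% ± 1.14, and of Nlrc5, an activator of MHC class I genes, at 38.1% ± 0.964 and 34.6% ± 1.70. Among bodies, the smallest p belonged to Tap1, a peptide transporter gene, at 69.7% ± 0.724 and 67.1% ± 0.634 (limma adjusted p = 0.953). Ifitm2, which encodes a membrane protein that blocks viral entry, was at 48.3% ± 0.466 and 45.3% ± 1.71. Psmb8, an immunoproteasome subunit gene, was at 53.2% ± 1.68 and 50.7% ± 0.831, and Ifi27 was higher, at 68.2% ± 0.660 and 69.8% ± 0.907. None passed after adjustment.

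The start windows of this wider list lay on both sides of 20%, as did those of the 9 genes and of genes in general. Of 51 with a value, 38 were under 20%, 7 at 20% to 60% and 6 above 60%, with a median of 3.90%. Over the 15101 genes given above, 65.8% were under 20%, with a median of 4.85%. Among the 51 promoters of the wider list, 17 held the ISRE core. Psmb9 and Tap1 share a start window, which is counted under both names. The 6 highest were Ifng at 81.7%, Ifit1bl1 at 79.8%, Ifnb1 at 78.0%, Oasl2 at 67.8%, Cxcl9 at 65.7% and Oas3 at 63.4%. Both interferon ligand genes of the list were thus methylated at the start. In the Ifit family, the starts were at 3.89% in Ifit3, 7.65% in Ifit2, 16.5% in Ifit1, 23.8% in Ifit3b and 79.8% in Ifit1bl1, with the limit on near copies given above. Cxcl9, the neighbouring chemokine gene of Cxcl10, was at 65.7% where Cxcl10 was at 34.0%.

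Likeness of the loci was measured over 4 mean levels (gene end, body, 10 kb before and 10 kb after), as a Euclidean distance in percentage points among the 54 genes with all 4. Ifih1 was closest to Oasl1, at 5.56 points, and to Ifnar1, at 6.72. Irf7 was closest to Irf5, at 7.48, and then to Cmpk2, at 15.5. Stat2 was closest to Gbp2, at 7.89, and to Rnf213, at 8.28, while Irf9 was closest to Rnf213, at 9.29, and to Stat2, at 10.6. Ifit1 had Isg20 at 7.50 and Stat3 at 10.5.

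Irf1 and Ifit3 stood further from their nearest genes. Irf1 had Psmb8 at 23.9 points and Irgm1 at 27.5, and its surroundings were low too, at 47.4% before and 50.7% after the gene. Ifit3 had Irf7 at 20.6 and Xaf1 at 21.7, with 87.1% before its gene and a body of 47.5% over 6 samples. Without the start window at 3.89%, the Ifit3 body was at 62.0%. The Irf1 body, 34.9% with its start window, was at 39.9% without it. Isg15 and Cxcl10 have no body value and were not compared.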

How the data were processed

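Whole-genome bisulfite libraries made by tagmentation were sequenced from 6 samples of sorted lung endothelial cells, per the labels' protocols. BWA 0.7.8 and mm10 are named in the submitters' processing notes. A CpG caller, coverage filter or smoothing step is not given in the sources used here. For 1684140 windows of 1000 bp on 19 autosomes the authors deposited each sample's mean methylation fraction, without coverage, so depth and counting error are unknown. The 1683697 windows with values in all 6 samples were kept and fractions were multiplied by 100.

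Gene spans, start sites and promoters came from RefSeq tables of GRCm38.p6, the assembly that mm10 represents. No exon or intron annotation was used. An end ran from 1000 bp outside to 500 bp inside a gene edge, and the less methylated end was taken where both had a window. A body left out 500 bp at each edge and had at least 3 windows. Region values are unweighted means of the overlapping windows. Ends, bodies and windows were fitted over all features in R 4.3.3 by limma 3.58.1. The fit used percent values, a variance trend, group as the only term and Benjamini-Hochberg adjustment at 0.05. The code was tested on simulated data.

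The members, lists and tests were chosen with earlier results of these data known. All 9 members were named, with each locus's lowest window, its widest difference without overlap, its start and its low runs. From the wider list the rule named any call, the 4 smallest p at ends and at bodies, and each member's 2 nearest genes. Other scales, trends, region widths and left-out samples were tried.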

Additional observations from a re-analysis of the deposited data

How the results depend on the processing

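Depth is unknown, so precision rests on 3 samples per group. The direction of the Irf1 and Ifit3 body differences and of the Irf1, Stat2 and Cxcl10 end differences held in every alternative that gave a value. Stat2's end fell to 0.0882 and Irf1's to 0.402 points at the wider end. Several alternatives left these differences identical and so were no check on direction. They were the fits without a variance trend, without extreme windows and with a replicate block. For the ends, the span from 500 bp outside to 500 bp inside and the end that holds the start also gave identical values. So did the whole gene span for the Ifit3 body. The counts of calls over all genes and windows were small and moved. On the logit scale they were 0 ends, 1 body and 145 windows. Without a variance trend 0 ends were called. With windows of extreme values removed 0 bodies and 59 windows were called. Ends from 2000 bp outside to 1000 bp inside gave 0 calls, and the end that holds the start gave 3. Leaving out 1 sample gave 0 to 4 ends, 0 to 3 bodies and 680 to 998 windows. Without mAdu replicate 1, 1 member end was lower in aged samples, not 3. Leaving out any other sample gave 3 to 4. At under 10%, 13 windows of the 9 loci counted as low. The count of lower member bodies, 6, was 4 to 7 without 1 sample. No gene of the wider list was called on the logit scale, without a variance trend or without extreme windows. None was called with a replicate block or with 1 sample left out. Calls of this list were not counted at the other end and body definitions.

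With the replicate number as a block, 0 ends, 0 bodies and 185 windows were called, and the members' differences were unchanged by construction. Same-numbered samples correlated at -0.166, -0.136 and -0.00642 in their deviations over bodies, so the numbers were not taken as pairs. The median over windows turned the sign of Ifit1's body (0.744). The wider end turned those of the Ifih1 (1.33), Irf7 (0.398) and Ifit3 (-0.223) ends. Leaving out 1 sample turned the Irf7, Ifit1, Isg15, Irf9 and Ifit3 ends and the Irf7, Irf9, Stat2 and Ifih1 bodies at least once. The Irf7 and Ifit3 bodies had no value at 2000 bp inside each edge.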
